A study of Drosophila melanogaster with 216 samples.

Results

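The flies described here were middle-aged females that had poor food as larvae and stayed on poor food as adults. They were set against females of the same cohort mortality and adult food that had been raised on richer food. All were chosen by their labels: female, sampled when 10% of the cohort had died, and kept on the 0.25SY adult diet. This gave 12 of the 216 arrays of the series, 4 each of flies from the 0.25SY, 1SY and 2.5SY larval diets. The labels give no day of age for these flies, and the paper reports that larval diet affected virgin lifespan. On the 0.25SY adult diet it found these lifespan differences to be smaller, and not all pairwise contrasts were significant. Days of age may thus differ between the larval diets, and the 2 cannot be told apart here. Yeast and sugar set the diets apart: a litre of 1SY contained 70 g yeast with 100 g sugar, and the poor and the rich food contained 0.25 and 2.5 times these amounts. These are the amounts of the labels and the methods, while another passage of the study swaps the weights of the pair. RNA came from whole bodies of virgin Drosophila melanogaster of a laboratory stock population, with 5 flies per Affymetrix array, and no group carried an allele or a drug. By the methods, the 4 arrays of a group are pools of flies from 1 cohort, so every p-value below measures the spread between pools of that cohort and not between independently raised cohorts. The question was whether the diet of the larva was still visible in the RNA of the middle-aged female when her adult food was poor, and how far the answer followed the eggshell RNA of each pool of flies.

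In the fly, the insulin receptor InR receives the insulin-like peptides, and its gene is a target of the transcription factor FOXO, which is active when insulin signalling is low, as in fasting. The ovary makes the eggshell late in egg development, when follicle cells secrete first the proteins of the vitelline membrane and then those of the chorion, and egg making in the fly depends strongly on yeast in the adult food. Chchd2 encodes a small protein of the mitochondrion, and Gart an enzyme with several activities in the synthesis of purines. These 3 genes marked the comparison, and all 3 had a probe set of their own.

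Some arrays stood apart. The eggshell level of an array, the mean log2 value of 11 chorion and 5 vitelline membrane genes, was 8.21, 11.99, 11.13 and 10.39 in replicates 1 to 4 of the larval 0.25SY females. It was 7.46, 9.85, 5.83 and 6.66 in the larval 1SY females, and 5.92, 6.37, 7.95 and 9.16 in the larval 2.5SY females. Replicate 1 of the poorly raised flies lay among the higher arrays of the other diets, while its replicates 2 to 4 lay above all 8 of them. The mean was 10.43 ± 1.62 (SD, n = 4) in larval 0.25SY females and 7.40 ± 1.49 (SD, n = 8) in larval 1SY and 2.5SY females, a difference of 3.03 on the log2 scale, and within each of the 3 groups the arrays spread over more than 3 log2 units. The flies are whole bodies, so fewer follicle cells and less RNA per follicle cell cannot be told apart, and the same holds for every tissue below.

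Replicates 2 and 3 of the larval 0.25SY females also had low array quality weights (0.330 and 0.180), as did replicate 1 of the larval 2.5SY females (0.247) and replicate 2 of the larval 1SY females (0.369). These weights come from limma and are low where an array lies far from its group over all probe sets. The larval 0.25SY arrays were less alike than those of the other groups: their correlation with their own group was 0.659, 0.324, 0.499 and 0.653, and replicates 1 and 4 correlated more with the larval 2.5SY females of the same adult food (0.785 and 0.793). Replicate 2 of the larval 1SY females had a correlation of 0.449 with its own group. Replicate 1 of the larval 2.5SY females held RNA of male tissue, with a mean of 14 accessory gland genes of 7.54. This mean was 5.12 to 5.92 in the other 11 arrays and 12.78 to 13.37 in middle-aged males. Over all 35 other arrays of middle-aged females it reached 7.35 (median 5.17), so such a level was not peculiar to this array. Replicate 1 of the larval 2.5SY females also had the lowest mean of 38 female germline genes, 7.76, against 9.41 to 10.86 in the other 11. All arrays, including any that the study left out before its own analysis, were in the table, so the results below are given with all 12 arrays and, where it matters, without those that stood apart.

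**Figure D1:**
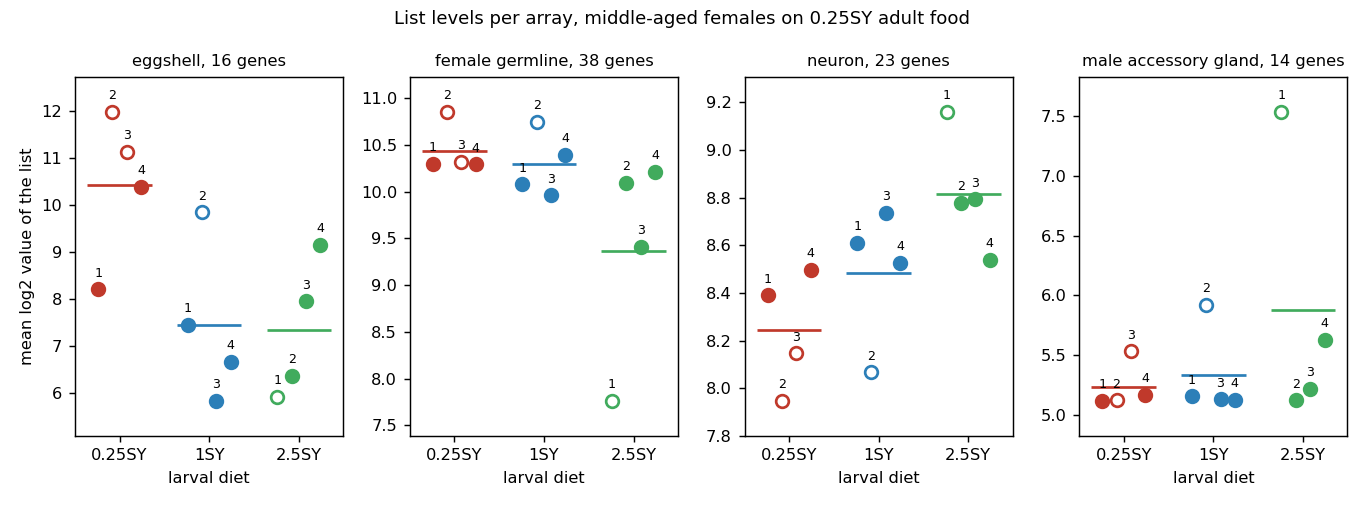
Mean log2 level (y axis) of the eggshell, female germline, neuron and male accessory gland lists in each of the 12 arrays of middle-aged females on 0.25SY adult food, by larval diet (x axis), with replicate numbers beside the points, lines at group means and open symbols for arrays with a quality weight under 0.4. Eggshell levels of larval 0.25SY replicates 2 to 4 lie above all 8 arrays of the other diets, and larval 2.5SY replicate 1 lies apart in the germline (7.76) and accessory gland (7.54) lists.

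InR was lower in the poorly raised females than in the others. Its log2 level was 10.13, 9.62, 10.01 and 10.23 in larval 0.25SY females, against 11.02, 10.54, 11.33 and 11.03 in larval 1SY females and 11.52, 11.00, 10.84 and 11.22 in larval 2.5SY females. No array of the poorly raised females reached any of the other 8. The difference was -1.07 on the log2 scale (SE 0.12, 95% confidence interval -1.31 to -0.83), a level 2.1-fold lower, with a limma adjusted p of 4.32e-08 over all 18769 probe sets, the smallest of any. An exact permutation test over the 12 arrays, two-sided, gave p = 0.00202, and 0.00606 after adjustment over the 3 marker genes. The first is the smallest that the 495 ways of choosing 4 of 12 arrays can give. The 3 genes were chosen with earlier results of these data known, so their permutation tests are not separate support. Against larval 1SY females alone the difference was -0.99 (limma adjusted p = 1.97e-05), and against larval 2.5SY females alone -1.15 (limma adjusted p = 4.24e-07).

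The difference in InR did not rest on single arrays. Leaving out each array in turn gave differences from -1.15 to -0.94, all past the threshold. Without replicates 2 and 3 of the larval 0.25SY females, which had the highest eggshell levels, the difference was -0.89 (limma adjusted p = 0.00224). With the 12 arrays fitted alone it was -1.07 at a limma adjusted p of 0.0346. With the eggshell level of each array as a covariate it was -0.98 (limma adjusted p = 5.94e-06), and the 1 setting in which the call was lost was the same covariate in the 12 arrays alone (-0.68, limma adjusted p = 0.989). Replicate 1 of the larval 0.25SY females, with an eggshell level of 8.21, had an InR level of 10.13, while replicate 3 of the larval 2.5SY females, at 7.95, had 10.84 and replicate 4, at 9.16, had 11.22. Replicate 2 of the larval 1SY females, which at 9.85 had the highest eggshell level of the 8 arrays, had the lowest InR level of the 8, 10.54.

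Chchd2 was also lower, with more overlap. Its level was 13.57, 13.12, 13.23 and 13.74 in larval 0.25SY females, against 14.07, 13.56, 14.22 and 14.04 in larval 1SY females and 14.30, 13.97, 13.84 and 14.06 in larval 2.5SY females. Replicate 2 of the larval 1SY females, the array of that group with the highest eggshell level, lay within the range of the poorly raised flies. The difference was -0.59 (SE 0.11, 95% confidence interval -0.81 to -0.38), or 1.51-fold, with a limma adjusted p of 0.000162, and an exact permutation p of 0.00606 (adjusted 0.00909). The call held with the eggshell covariate (-0.52, limma adjusted p = 0.00765) and was lost in the 12 arrays alone (limma adjusted p = 0.16) and without larval 0.25SY replicates 2 and 3 (-0.36, limma adjusted p = 0.307).

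Gart showed no difference past the threshold. Its level was 10.49, 9.96, 9.81 and 10.30 in larval 0.25SY females, against 10.40, 10.14, 10.55 and 10.00 in larval 1SY females and 9.66, 10.12, 10.12 and 10.17 in larval 2.5SY females. The difference of -0.0033 had a 95% confidence interval of -0.31 to 0.30 (SE 0.15, limma adjusted p = 0.991, exact permutation p = 0.994). The lowest of the 12 values was that of replicate 1 of the larval 2.5SY females, the array with male transcripts.

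Among the 8 arrays of the larval 1SY and 2.5SY females, the correlation with the eggshell level was negative for InR and Chchd2 and did not pass after adjustment. Pearson's r with the eggshell level was -0.67 for InR (exact permutation p = 0.0661, adjusted 0.0992 over the 3 genes) and Spearman's rho was -0.67 (exact permutation p = 0.0831, adjusted 0.125). For Chchd2 r was -0.77 (exact permutation p = 0.0234, adjusted 0.0702) and rho -0.69 (exact permutation p = 0.0694, adjusted 0.125). For Gart r was 0.10 (exact permutation p = 0.808) and rho 0.07 (exact permutation p = 0.882). Without the 2 arrays farthest from the median eggshell level, larval 1SY replicate 2 and larval 2.5SY replicate 4, r was -0.82, -0.79 and 0.15 for InR, Chchd2 and Gart over the other 6. The 8 arrays come from 2 cohorts and share their adult food.

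**Figure D2:**
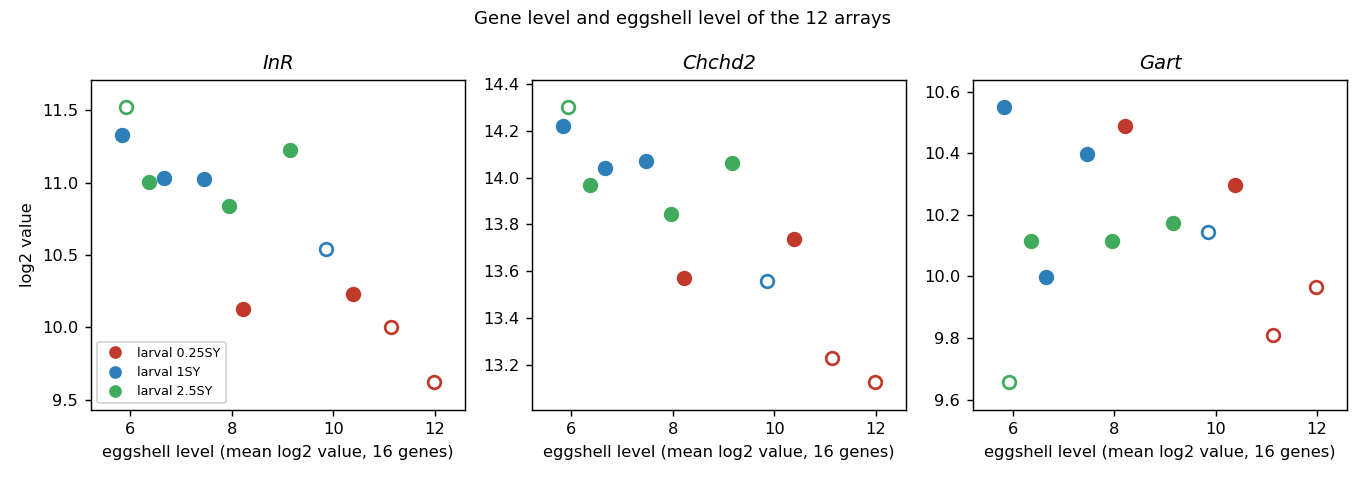
Levels of InR, Chchd2 and Gart (log2 RMA value, y axis) against the eggshell level of the same array (mean log2 value of 16 genes, x axis) for the 12 arrays, with larval diets in different colours and open symbols for arrays with a quality weight under 0.4. InR is below all other arrays in the 4 larval 0.25SY arrays, and in replicate 1 it is 10.13 at an eggshell level of 8.21.

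Across all probe sets, 1187 were higher and 2189 lower in larval 0.25SY females than in larval 1SY and 2.5SY females (limma, adjusted p under 0.05), or 6.32% and 11.7% of the 18769 tested. The split between directions depends on the scaling of the arrays: with arrays centred on their medians, which moves the median difference of all probe sets from 0.02 to 0.10, it was 2260 higher and 1636 lower. Over the 11982 genes with a probe set of their own, the shares called were 5.83% higher and 13.4% lower, and each list below is read against these. In 114 probe sets all 4 arrays of the poorly raised females lay above all 8 others (0.607%), and in 206 all 4 lay below (1.1%). The calls rest on the spread estimated from all 72 arrays of middle-aged and old females. In the 12 arrays fitted alone 12 probe sets were called, 10 higher and 2 lower (InR and CG10383), all among the 3376 above, while 3175 had an unadjusted p under 0.05. Without larval 0.25SY replicates 2 and 3 it was 12 higher and 21 lower, and with the eggshell covariate 166 and 678 (0.885% and 3.62%, or 0.827% and 4.18% of genes). With array quality weights it was 265 higher and 663 lower, and with blocks of the sample numbers that the array provider gave 567 and 1270.

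**Figure D3:**
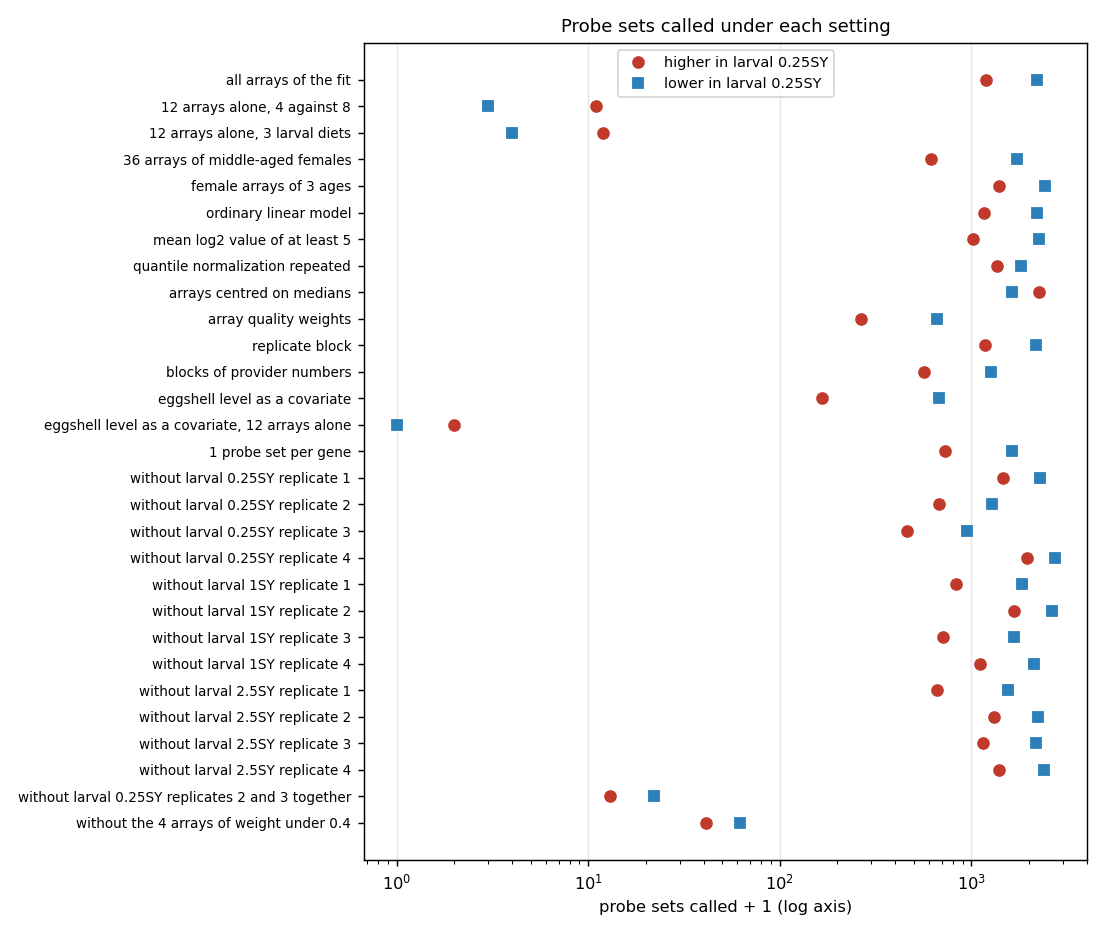
Number of probe sets plus 1 (log axis) called higher (circles) or lower (squares) in larval 0.25SY than in larval 1SY and 2.5SY middle-aged females on 0.25SY adult food (limma, adjusted p under 0.05), with 1 line for each way of fitting the data and for each array left out. With all arrays it is 1187 higher and 2189 lower, and in the 12 arrays alone 10 higher and 2 lower.

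With each richer larval diet taken alone, 636 probe sets (3.39%) passed against larval 1SY females and 4356 (23.2%) against larval 2.5SY females. Larval 2.5SY and larval 1SY females differed at 928 probe sets (4.94%), but at 1 probe set without replicate 1 of the larval 2.5SY females, the array with male transcripts, and at 2 without replicate 2 of the larval 1SY females. Without that larval 2.5SY array, 1884 probe sets passed between larval 0.25SY and larval 2.5SY females. Against larval 1SY females the count was 40 without larval 1SY replicate 3 and 72 without larval 0.25SY replicate 3, and it was 1808 without larval 0.25SY replicate 4.

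In 6 genes the difference passed in all of 5 settings: all arrays, the 12 arrays alone, the eggshell covariate, without larval 0.25SY replicates 2 and 3, and without the 4 arrays of low weight. They were InR and CG10383, which were lower, and Nplp3, CG7381, AANATL4 and Alp1, which were higher. CG10383 had levels of 9.80, 9.36, 9.46 and 9.49 in larval 0.25SY females, against 10.41 to 11.44 (median 10.83) in larval 1SY and 2.5SY females, a difference of -1.37 (SE 0.16, limma adjusted p = 7.89e-08). As for InR, the groups did not overlap.

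Nplp3, the precursor of a neuropeptide-like peptide, had nearly the same level in the 4 pools of poorly raised females, 11.28, 11.17, 11.12 and 11.21, against 9.51 to 10.69 (median 9.88) in larval 1SY and 2.5SY females. The difference was 1.22 (SE 0.21, limma adjusted p = 6.37e-05). CG7381 was at 10.47, 10.57, 10.12 and 10.31 in larval 0.25SY females and at 8.31 to 9.64 (median 8.97) in the others, a difference of 1.39 (SE 0.25, limma adjusted p = 0.000138). All 4 of the higher genes had their lowest larval 0.25SY array above the highest of the other 8.

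AANATL4, a member of the arylalkylamine N-acetyltransferase family, was at 6.35, 7.35, 6.80 and 6.87 in larval 0.25SY females and at 5.47 to 5.89 (median 5.62) in the others (difference 1.20, SE 0.18, limma adjusted p = 9.86e-06). Alp1, an alkaline phosphatase, was at 6.33, 6.21, 6.50 and 6.02 in larval 0.25SY females, against 5.39 to 5.77 (median 5.54), a difference of 0.69 (SE 0.10, limma adjusted p = 9.68e-06). Both are dim on the array, near the range where RMA compresses differences. These 6 genes were singled out after their values had been seen.

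The genes of insulin signalling were lower where they moved. Of 12 measured members of the list 0 were higher and 7 lower, with a median difference of -0.32, beside 5.83% and 13.4% of all genes and a median of 0.02 over all probe sets. The list mean was 8.77 to 9.00 in larval 0.25SY females and 9.18 to 9.43 in the others, without overlap. Besides InR, the 7 were chico, the insulin receptor substrate (-0.40, limma adjusted p = 0.000333), Akt, the central kinase of the pathway (-0.56, limma adjusted p = 0.000958), the kinase Pdk1 that acts on Akt (-0.25, limma adjusted p = 0.0253), foxo itself (-0.31, limma adjusted p = 0.0319), the insulin-like peptide Ilp2 (-0.32, limma adjusted p = 0.042) and ImpL2.

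ImpL2 encodes a secreted protein that binds insulin-like peptides and holds back signalling. Its level was 10.96, 10.99, 10.99 and 11.15 in larval 0.25SY females, against 11.35 to 12.75 (median 11.77) in larval 1SY and 2.5SY females, and the groups did not overlap (difference -0.80, SE 0.15, limma adjusted p = 0.000335). Thus genes that carry the signal and a gene that restrains it were both lower. The insulin-like peptides Ilp5 (-0.32, limma adjusted p = 0.166), Ilp7 (0.20, limma adjusted p = 0.567) and Ilp8 (0.49, limma adjusted p = 0.209) did not pass. With the eggshell covariate 4 of the 12 were called (InR, chico, Akt and ImpL2), and in the 12 arrays alone and without larval 0.25SY replicates 2 and 3 only InR was. The 7 lower became 4 without larval 1SY replicate 3, 4 without larval 2.5SY replicate 1 and 4 with arrays centred on medians.

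Targets of FOXO and other genes known to respond to fasting went the same way. All 15 measured members had a negative difference (median -0.42), and 0 were higher and 8 lower, InR and foxo among them. Lk6, a kinase of translation initiation, was lower (-0.50, SE 0.09, limma adjusted p = 0.000133), with all 4 larval 0.25SY arrays below 13.01, the lowest of the others. scyl, an inhibitor of TOR signalling, was at 11.96, 11.91, 12.14 and 11.79 in larval 0.25SY females and at 12.16 to 12.68 (median 12.30) in the others (-0.42, SE 0.09, limma adjusted p = 0.00077). In both genes the groups did not overlap.

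REPTOR, a transcription factor that acts when TOR is low, was lower (-0.50, limma adjusted p = 0.000371), as were its partner REPTOR-BP (-0.34, limma adjusted p = 0.0418), the sestrin gene Sesn (-0.22, limma adjusted p = 0.007) and the triglyceride lipase gene bmm (-0.30, limma adjusted p = 0.0284). Pepck1, of gluconeogenesis (-0.44, limma adjusted p = 0.0529), and tobi, a glucosidase gene named for its response to insulin from the brain (-0.61, limma adjusted p = 0.288), did not pass. With the eggshell covariate 4 were called, in the 12 arrays alone 1, and without larval 0.25SY replicates 2 and 3 InR and scyl. Without larval 0.25SY replicate 2, its replicate 3 or larval 2.5SY replicate 1 it was 5, and with arrays centred on medians 4. In the TOR pathway list, which shares Sesn, 1 of 17 was higher and 6 lower (median -0.03), with S6k (-0.41, limma adjusted p = 0.005) and Atg1, the kinase that starts autophagy (-0.24, limma adjusted p = 0.00174), lower and rictor higher (0.20, limma adjusted p = 0.0409). The TOR list had 3 lower without larval 0.25SY replicate 2, 2 with the eggshell covariate, 2 with centred arrays (median 0.04), and 0 in the 12 arrays alone or without larval 0.25SY replicates 2 and 3. rictor lost its call when any of 7 arrays was left out (larval 0.25SY replicates 2, 3 and 4, larval 1SY replicates 1 and 3, and larval 2.5SY replicates 1 and 3).

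Among mitochondrial import and shape genes the directions were mixed: 4 of 19 were higher and 5 lower (median 0.02). Opa1, which fuses inner membranes, was at 10.05, 10.06, 9.97 and 10.07 in larval 0.25SY females and at 10.09 to 10.47 (median 10.25) in the others, a small difference without overlap (-0.21, SE 0.04, limma adjusted p = 0.000371). Besides Chchd2, the mitochondrial quality control kinase Pink1 (-0.40, limma adjusted p = 0.0011), the outer membrane fusion gene Marf (-0.28, limma adjusted p = 0.00147) and the chaperone Hsc70-5 (-0.25, limma adjusted p = 0.00186) were lower. The import genes Tim9a (0.28, limma adjusted p = 0.00873), Tom20 (0.18, limma adjusted p = 0.0483) and Tom40 (0.18, limma adjusted p = 0.046) were higher, as was clu (0.29, limma adjusted p = 0.00321). With the eggshell covariate all 5 lower genes were still called and 0 of the higher ones. The 4 higher became 1 without larval 0.25SY replicate 2, and 2 without its replicate 3, larval 1SY replicate 1, 3 or 4, or larval 2.5SY replicate 1 or 3. In the 12 arrays alone and without larval 0.25SY replicates 2 and 3 together, 0 of the list were called. In purine synthesis 0 of 11 genes were higher and 1 lower, Adss (-0.15, limma adjusted p = 0.011).

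Of the genes of the respiratory chain and ATP synthase 4 of 57 were higher and 2 lower (median 0.03). With arrays centred on medians, where 2260 of the 18769 probe sets were higher, 16 of the 57 were higher and 2 lower. The 4 higher became 7 without larval 1SY replicate 1, 8 without larval 2.5SY replicate 2 and 2 without larval 0.25SY replicate 2 or 4, and the 2 lower became 5 without larval 1SY replicate 2. Of 29 cytosolic ribosomal protein genes 0 were higher and 1 lower. tRNA synthetases (18 genes), proteasome subunits (26) and enzymes of one-carbon metabolism (9) had 0 called in either direction by limma, and 4, 3 and 1 of them had an unadjusted p under 0.05, beside 6084 of all probe sets. With 1 array left out, 0 to 3 of the synthetases were higher, 0 to 2 of the proteasome genes lower and 0 to 2 of the one-carbon genes lower.

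**Figure D4:**
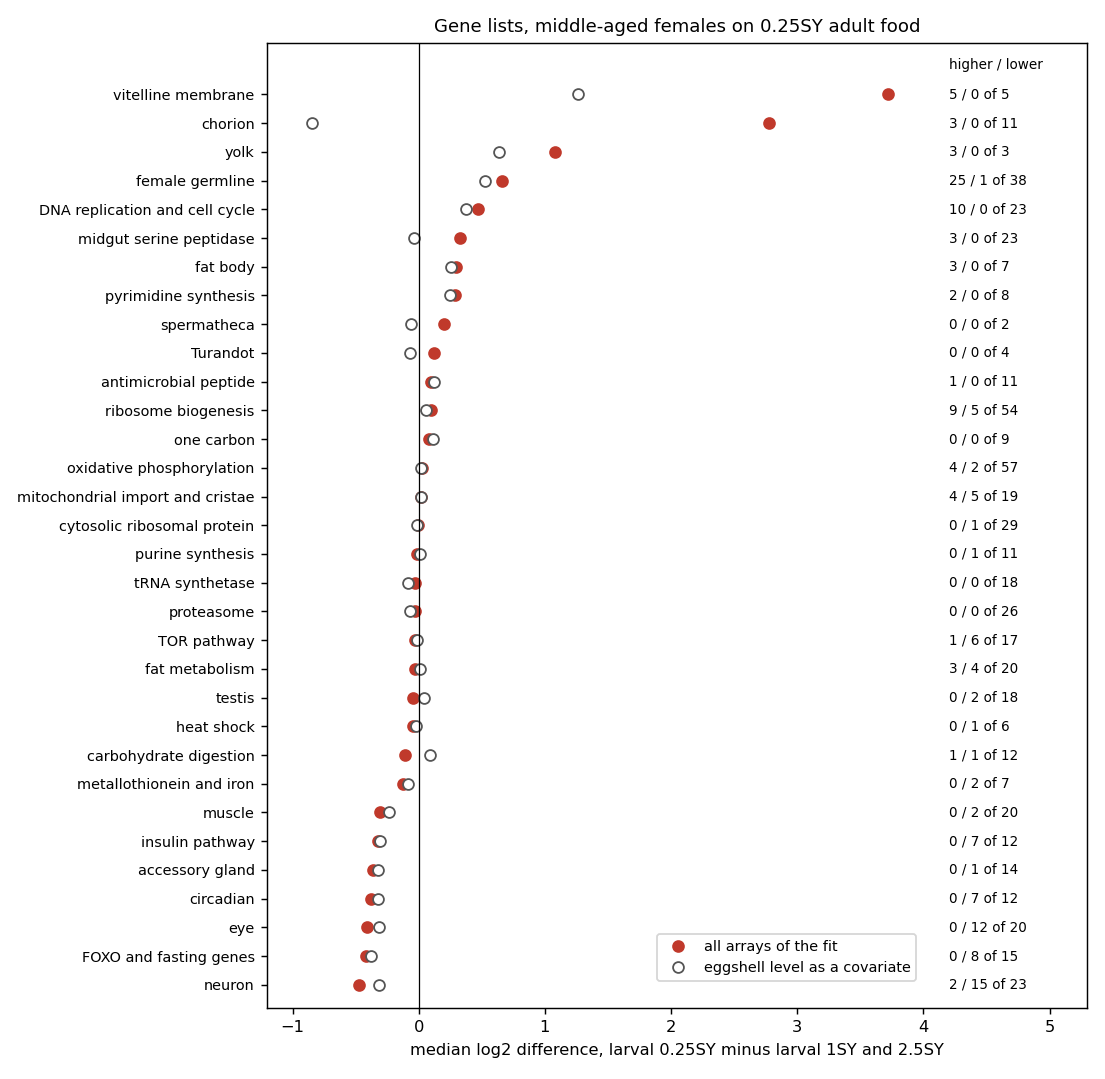
Median log2 difference (x axis, larval 0.25SY minus larval 1SY and 2.5SY) over the measured members of each of 32 gene lists in middle-aged females on 0.25SY adult food, from all arrays of the fit (filled) and with the eggshell level as a covariate (open), with the number of members called higher and lower at the right. With all arrays it is 3.72 for the vitelline membrane list, 2.78 for chorion, -0.32 for insulin signalling and -0.42 for FOXO and fasting genes. The chorion and vitelline membrane genes make up the covariate, so their open symbols are moved by construction.

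Eggshell genes were higher, with Vm32E showing the largest difference of all genes past the threshold. All 5 measured vitelline membrane genes were higher (median 3.72), and 3 of 11 chorion genes were (median 2.78), with 0 lower in either list. Vm32E was at 10.53, 12.73, 11.32 and 11.55 in larval 0.25SY females, against 6.95, 10.36, 4.64 and 7.21 in larval 1SY females and 5.02, 5.17, 5.08 and 9.49 in larval 2.5SY females. The difference was 4.79 (SE 1.24, limma adjusted p = 0.00532), without overlap, and the arrays of the other diets ranged over more than 5 log2 units. Vm34Ca was at 13.55, 14.27, 13.54 and 13.91 in larval 0.25SY females and at 6.89 to 13.13 (median 9.46) in the others (3.96, SE 1.00, limma adjusted p = 0.00446).

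Among chorion genes the groups overlapped in Cp15, which passed. It was at 11.75, 14.56, 14.31 and 13.65 in larval 0.25SY females (difference 3.67, SE 1.22, limma adjusted p = 0.0296). The values were 9.42, 11.82, 7.17 and 7.68 in larval 1SY females and 6.31, 8.18, 14.36 and 14.23 in larval 2.5SY females. Thus 2 larval 2.5SY arrays and larval 1SY replicate 2 lay within the range of the poorly raised ones. The chorion genes Cp16 (2.78, limma adjusted p = 0.192), Cp19 (3.41, limma adjusted p = 0.138) and Cp36 (3.66, limma adjusted p = 0.0766) had differences of similar size and did not pass. The 3 chorion genes became 7 without larval 0.25SY replicate 1 and 1 without its replicate 2, its replicate 3, larval 1SY replicate 3 or larval 2.5SY replicate 1, and the 5 vitelline membrane genes became 3 without larval 0.25SY replicate 2. In the 12 arrays alone and without larval 0.25SY replicates 2 and 3 no gene of either list was called. Without these replicates Vm32E was at 4.30 (limma adjusted p = 0.322) and Vm34Ca at 3.87 (limma adjusted p = 0.249).

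Fcp3C, a follicle cell protein gene, separated the groups in every array. It was at 10.65, 10.82, 9.39 and 11.23 in larval 0.25SY females and at 6.34 to 7.31 (median 6.56) in all 8 others, also in those with a high eggshell level. The difference was 3.86 (SE 0.89, limma adjusted p = 0.00199; in the 12 arrays alone 0.000101, the smallest of that fit), and it missed the threshold with the eggshell covariate (limma adjusted p = 0.0892) and without larval 0.25SY replicates 2 and 3 (limma adjusted p = 0.0982). CG14187 (3.28, limma adjusted p = 0.00275) and Jhbp5, of the juvenile hormone binding protein family (2.55, limma adjusted p = 0.00172), had the same non-overlapping pattern.

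The 3 yolk protein genes, made by fat body and follicle cells, were all higher. Yp2 was at 13.87, 14.52, 14.14 and 14.07 in larval 0.25SY females and at 11.88 to 14.14 (median 12.74) in the others (1.29, SE 0.26, limma adjusted p = 0.00056). Yp1 differed by 0.38 (limma adjusted p = 0.000241) and Yp3 by 1.08 (limma adjusted p = 0.000366). All 3 remained called with the eggshell covariate and without the 4 arrays of low weight, and none in the 12 arrays alone or without larval 0.25SY replicates 2 and 3.

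Genes of the female germline were higher in part. Of 38 measured, 25 were higher and 1 lower (median 0.66), but 13 and 1 without larval 2.5SY replicate 1, the array with male transcripts, 6 and 1 without larval 0.25SY replicate 2, 13 and 0 without its replicate 3, 15 and 1 without larval 1SY replicate 1, 12 and 1 without larval 1SY replicate 3, 2 and 0 with the eggshell covariate, and 0 in the 12 arrays alone or without larval 0.25SY replicates 2 and 3. orb, which controls translation in the oocyte, was at 12.01, 12.34, 12.45 and 11.83 in larval 0.25SY females and at 8.07 to 12.12 (median 11.38) in the others (1.15, SE 0.26, limma adjusted p = 0.00171), with the 8.07 in that larval 2.5SY array. The 1 lower gene was tud, of the germ plasm (-0.24, limma adjusted p = 0.0133). The germline list mean was 10.44, 10.30 and 9.37 in larval 0.25SY, 1SY and 2.5SY females. DNA replication and cell cycle genes had 10 of 23 higher and 0 lower (median 0.47), among them CycE (0.71, limma adjusted p = 0.0202) and PCNA (0.57, limma adjusted p = 0.0248), but 1 without larval 2.5SY replicate 1, 0 without larval 0.25SY replicate 2, 6 without its replicate 3, 2 without larval 1SY replicate 1, 1 without larval 1SY replicate 3 and 17 without larval 2.5SY replicate 4. The mean of the replication list was 10.04, 10.06 and 9.09 in larval 0.25SY, 1SY and 2.5SY females, so it was not higher than in larval 1SY females. With the eggshell covariate or in the 12 arrays alone, 0 of these 23 genes were called. Ribosome biogenesis genes had 9 of 54 higher and 5 lower, and 1 and 4 without larval 2.5SY replicate 1. The 9 higher also became 1 without larval 0.25SY replicate 2 (with 3 lower) or 3, 4 without larval 1SY replicate 1 and 3 without larval 1SY replicate 3. Calls in this list were 0 higher and 2 lower with the eggshell covariate. They were 0 in the 12 arrays alone and without larval 0.25SY replicates 2 and 3 together.

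Genes of the eye and of neurons were lower. In the eye list 12 of 20 were lower and 0 higher (median -0.41). trp, the light-activated channel, was at 9.56, 9.05, 9.44 and 9.78 in larval 0.25SY females and at 9.60 to 10.97 (median 10.45) in the others (-0.93, SE 0.18, limma adjusted p = 0.000397). ninaG, of visual pigment synthesis, was at 6.81, 6.81, 6.73 and 6.95 in larval 0.25SY females and at 6.95 to 7.56 (median 7.31) in the others (-0.47, SE 0.08, limma adjusted p = 6.98e-05), the groups just not overlapping.

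In the neuron list 15 of 23 were lower and 2 higher (median -0.47). The sodium channel gene para (-0.65, limma adjusted p = 0.000374) and VAChT, the vesicular transporter of acetylcholine (-0.80, limma adjusted p = 0.0018), were lower. VGlut, that of glutamate, was higher (0.40, limma adjusted p = 0.00964), with replicate 3 at 6.20 and replicates 1, 2 and 4 at 5.13 to 5.37. Its call was lost without larval 0.25SY replicate 3 (limma adjusted p = 0.356). Another VGlut probe set did not pass (0.22, limma adjusted p = 0.168). VGlut and VAChT are both dim, with mean log2 values of 5.24 and 5.05 in the fit. The circadian list had 7 of 12 lower and 0 higher (median -0.38), with per (-0.46, limma adjusted p = 0.0016) and vri (-0.69, limma adjusted p = 0.00321). With the eggshell covariate 2 eye genes, 3 neuron genes and 2 circadian genes were called, and in the 12 arrays alone and without larval 0.25SY replicates 2 and 3 together 0 in all 3 lists. Without larval 0.25SY replicate 2 it was 5 eye, 6 neuron and 3 circadian genes lower, without its replicate 3 it was 6, 10 and 3, and without larval 2.5SY replicate 1 the circadian list had 4. These lists moved opposite to the eggshell level, and whether they fell in their own tissue or took a smaller share of the RNA of the whole fly was not tested.

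Digestive and fat body genes differed in a few members. In the list of midgut serine peptidases 3 of 23 were higher and 0 lower (median 0.33), and its mean was 11.82 to 12.21 in larval 0.25SY females against 11.60 to 11.77 in the others, without overlap. Jon66Ci was at 8.62, 11.24, 10.44 and 11.05 in larval 0.25SY females and at 7.19 to 9.91 (median 7.87) in the others (2.14, SE 0.50, limma adjusted p = 0.00221). In the fat body list 3 of 7 were higher and 0 lower: the storage protein gene Lsp2 (2.37, limma adjusted p = 0.0385), Npc2e (1.59, limma adjusted p = 0.00926) and apolpp, the lipid carrier of the blood (0.30, limma adjusted p = 0.000829). Lsp2 lost its call when any of 7 arrays was left out (limma adjusted p up to 0.191), while Npc2e and apolpp kept theirs. With the eggshell covariate 1 peptidase gene was called and the median of that list was -0.04, and 1 fat body gene was called. In the 12 arrays alone and without larval 0.25SY replicates 2 and 3 both lists had 0 called.

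In fat metabolism 3 of 20 were higher and 4 lower (median -0.03, but 0.04 with centred arrays), and 1 and 2 without larval 0.25SY replicate 2 or 3. Calls in this list were also 1 higher and 2 lower with the eggshell covariate. They were 0 in the 12 arrays alone and without larval 0.25SY replicates 2 and 3 together. SREBP, the transcription factor of lipid synthesis, was at 11.27, 10.80, 10.86 and 11.11 in larval 0.25SY females and at 11.02 to 11.76 (median 11.52) in the others (-0.49, SE 0.07, limma adjusted p = 1.17e-05), the fatty acid synthase gene FASN2 was lower (-0.59, limma adjusted p = 0.00102), and the lipase gene mag was higher (1.13, limma adjusted p = 0.0197) with no overlap between the groups. Outside the lists, Pcyt1, of phosphatidylcholine synthesis (-0.78, limma adjusted p = 5.32e-06), Coq7, of coenzyme Q synthesis (-0.56, limma adjusted p = 6.89e-06), Vta1, of endosomal sorting (-0.41, limma adjusted p = 6.02e-07), and Rab14, a GTPase of endosomes (-0.40, limma adjusted p = 5.32e-06), were among the lower genes with the largest moderated t.

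Markers of male tissue did not rise with the poor larval diet. Of 18 testis genes 0 were higher and 2 lower, and of 14 accessory gland genes 0 were higher and 1 lower, Acp29AB, at 4.70 to 4.84 in larval 0.25SY females against 4.88 to 6.22 in the others, near background (-0.56, limma adjusted p = 0.00531). Muscle genes had 0 of 20 higher and 2 lower (median -0.31), but 9 lower without larval 1SY replicate 2, 8 without larval 0.25SY replicate 4, 5 without larval 2.5SY replicate 4, and 0 without larval 0.25SY replicate 2, with the eggshell covariate or in the 12 arrays alone. Among immune genes 1 of 11 antimicrobial peptide genes was higher, Mtk (1.37, limma adjusted p = 0.0476), with values from 9.22 to 13.39 in the arrays of the other diets, and 0 of 4 Turandot genes were called (limma; 1 had an unadjusted p under 0.05). Of the other lists, pyrimidine synthesis had 2 of 8 higher and 0 lower, carbohydrate digestion 1 of 12 higher and 1 lower, metallothionein and iron genes 0 of 7 higher and 2 lower, heat shock genes 0 of 6 higher and 1 lower, and both spermatheca genes had an unadjusted p over 0.05. With 1 array left out the calls for testis genes ranged from 0 to 2 lower, antimicrobial peptide genes from 0 to 1 higher, and pyrimidine synthesis from 0 to 3 higher. Pyrimidine synthesis had 0 without larval 0.25SY replicate 2, its replicate 3 or larval 2.5SY replicate 1. Its list mean was 10.48, 10.47 and 9.92 in larval 0.25SY, 1SY and 2.5SY females.

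In the test of the difference itself, the larval contrast on the poor adult food differed from that on the richer foods. The same larval contrast called 0 probe sets in middle-aged females on 1SY food and 0 in those on 2.5SY food (limma; 2210 and 782 had an unadjusted p under 0.05). The contrast on 0.25SY food minus that on the other 2 foods passed at 4103 probe sets (21.9%), 1548 higher and 2555 lower, or 8.25% and 13.6% of those tested. For InR that difference was -1.18 (limma adjusted p = 1.33e-06), for Chchd2 -0.85 (limma adjusted p = 3.74e-05) and for Gart 0.08 (limma adjusted p = 0.796).

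The group means show which groups were unusual. InR averaged 10.00 ± 0.27 in larval 0.25SY females on 0.25SY food, against 10.98 ± 0.33 and 11.15 ± 0.30 in larval 1SY and 2.5SY females on that food (SD, n = 4 each). On 1SY adult food the means for larval 0.25SY, 1SY and 2.5SY were 10.05, 9.84 and 9.92, and on 2.5SY adult food 10.10, 10.14 and 9.99. The level of the poorly raised females thus lay among those of females on the richer adult foods. It was the larval 1SY and 2.5SY females on poor adult food that had a higher one. The eggshell level on 1SY adult food averaged 11.48, 11.95 and 12.60 for larval 0.25SY, 1SY and 2.5SY, and on 2.5SY adult food 9.33, 9.99 and 11.62, so on these foods the poorly raised females had the lowest mean of the 3.

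**Figure D5:**
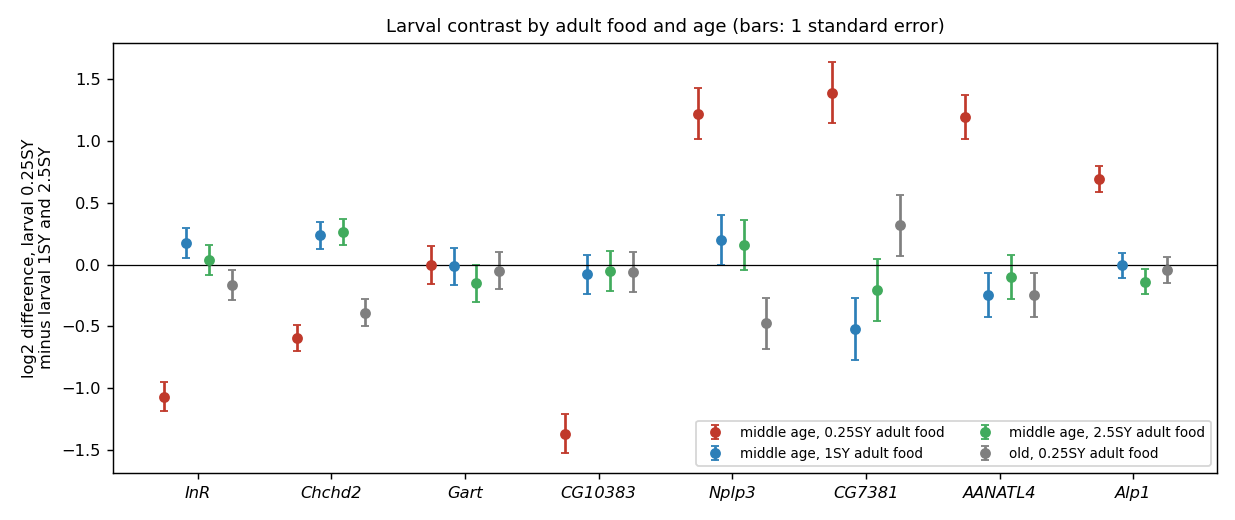
Log2 difference of larval 0.25SY minus larval 1SY and 2.5SY females (y axis, bars are 1 standard error) for InR, Chchd2, Gart and the 5 other genes called in every one of 5 settings, in middle-aged females on each adult food and in old females on 0.25SY food. InR stands at -1.07 in middle-aged females on 0.25SY food, against 0.18 and 0.04 on the other foods and -0.16 in old females.

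In old females on 0.25SY food, sampled when 90% of the cohort had died, the larval contrast called 6 probe sets higher and 1 lower, Cpr66D (0.0373% in all; 2131 had an unadjusted p under 0.05), none of them in any list above. InR was at 10.40 ± 0.15 in old larval 0.25SY females and at 10.66 ± 0.15 and 10.46 ± 0.08 in old larval 1SY and 2.5SY females (SD, n = 4 each), a contrast of -0.16. The larval contrast in middle-aged minus that in old females passed at 398 probe sets (2.12%), 122 higher and 276 lower (0.65% and 1.47%), but at 38 without larval 0.25SY replicate 3, 249 without larval 1SY replicate 3 and 210 without larval 2.5SY replicate 1, and at 1178 without larval 0.25SY replicate 4 and 632 without larval 1SY replicate 2. InR was among the 398, with -0.91 (limma adjusted p = 0.00297), as were CG10383 (-1.31, limma adjusted p = 0.00113), Nplp3 (1.70, limma adjusted p = 0.00113), AANATL4 (1.44, limma adjusted p = 0.00113) and Alp1 (0.74, limma adjusted p = 0.00459), while CG7381 (1.07, limma adjusted p = 0.0811) and Chchd2 (limma adjusted p = 0.459) were not.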

How the data were processed

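RNA of whole flies was measured on Affymetrix Drosophila 2.0 arrays. RMA, run by the authors, gave the deposited log2 values, through background adjustment, quantile normalization and a summary per probe set. The methods normalized each sex separately after leaving out some arrays, but the table used here held all 216 and whether it was normalized per sex is not stated. Of 18952 probe sets, 183 controls were left out and 18769 tested. Symbols came from the platform annotation (13647 probe sets with 1 symbol, 402 with several, 4720 with none), updated through RefSeq Release 6 for 13544. A gene is given by the brightest probe set paired with it alone (11982 genes).

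limma 3.58.1 in R 4.3.3 was fitted to the 18 groups of middle-aged and old females (72 arrays), with moderated contrasts and Benjamini-Hochberg adjustment at 0.05. The larval contrast is larval 0.25SY minus the mean of larval 1SY and 2.5SY. Single genes were also tested by exact permutation over 12 arrays. The members, the 32 gene lists and the settings were chosen with earlier results of these data known. Genes were named by a rule: the 3 markers, the 12 largest differences in each direction, the 8 largest t in each direction, the 4 largest t in each of both interaction contrasts, and up to 4 members per list with up to 2 in the other direction, 122 genes in all.

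Alternatives were other sets of arrays in the fit, an ordinary linear model, a filter at a mean log2 value of 5, quantile normalization repeated, median centring, array weights, the replicate number and blocks of 24 provider numbers as blocks, the eggshell level as a covariate, 1 probe set per gene, and arrays left out. Leaving out larval 0.25SY replicates 2 and 3, or the 4 arrays with a weight under 0.4, was chosen after seeing the data. On simulated data, 23.5%, 75% and 95.5% of differences of 0.25, 0.5 and 1 were called in the 72-array fit. With the 12 arrays alone it was 12%, 66% and 95%. The simulation drew independent noise with 1 spread per probe set for all arrays, and no array stood apart. These shares therefore do not give what can be detected in the real arrays, which were less even. The number of arrays limits the precision.

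Replicate numbers of the labels were not taken to pair arrays across groups, since same-numbered arrays did not all deviate together. No 2 of the 12 arrays held the same values (highest correlation 0.995).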

Additional observations from a re-analysis of the deposited data

Results flagged for a closer look

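The Gart value of larval 2.5SY replicate 1, 9.66, lay far from the other 3 of its group, with a gap of 0.887 of the group's range. Among the 122 named genes, 10 had such an array among the 4 of larval 0.25SY (CG8300, ImpL2, Akt, REPTOR, Atg1, rictor, Tim9a, PCNA, Mcm2 and Mcm5), and chance gives about 1 in 20 groups. The larval contrast on 0.25SY food differed from that on 1SY and 2.5SY food, by the interaction contrast in limma, at 4103 probe sets, with -1.18 for InR (adjusted p = 1.33e-06) and -0.85 for Chchd2 (adjusted p = 3.74e-05). It differed between middle-aged and old females at 398 probe sets, with -0.91 for InR (adjusted p = 0.00297).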

How the results depend on the processing

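The larval contrast of 1187 probe sets higher and 2189 lower gave 10 and 2 in the 12 arrays alone, 11 and 3 with 3 larval diets in those arrays, 616 higher in the 36 middle-aged arrays, 265 and 663 with array quality weights, 567 and 1270 with blocks of provider numbers, 166 and 678 with the eggshell covariate, and 1 and 0 with it in the 12 arrays alone (the cause was not tested). With 1 probe set per gene, which tests fewer probe sets, 729 were higher. With arrays centred on medians 2260 were higher and 1636 lower. The settings chosen after seeing the data, with fewer arrays, gave 12 and 21 without larval 0.25SY replicates 2 and 3, and 40 and 61 without the 4 arrays of low weight. Leaving out 1 array gave 460 to 1945 higher and 951 to 2718 lower, with 460 and 951 without larval 0.25SY replicate 3, 676 and 1275 without its replicate 2, 1945 higher without its replicate 4, 708 without larval 1SY replicate 3 and 660 without larval 2.5SY replicate 1.

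Against larval 1SY females the count of 636 became 235 with array weights, 45 with the eggshell covariate and 40 to 1808 with 1 array left out (1016 and 1808 without larval 0.25SY replicates 1 and 4, 72 without replicate 3, and 204, 1553 and 40 without larval 1SY replicates 1, 2 and 3). Against larval 2.5SY females 4356 became 977, 2476 and 1884 to 5367 (2813 without larval 0.25SY replicate 2, 1884 without larval 2.5SY replicate 1). Between larval 2.5SY and 1SY females 928 became 1 with array weights and 1 to 1996 with 1 array left out (2, 1705 and 290 without larval 1SY replicates 2, 3 and 4, and 1, 1494, 314 and 1996 without larval 2.5SY replicates 1 to 4). The difference between adult foods, 4103, became 971 with the eggshell covariate and 2730 to 5140 with 1 array left out, lowest without larval 0.25SY replicate 2. That between ages, 398, became 250 with quantile normalization repeated, 228 with centring, 64 with array weights, 42 with the eggshell covariate and 38 to 1178 with 1 array left out (38 and 1178 without larval 0.25SY replicates 3 and 4, 632 and 249 without larval 1SY replicates 2 and 3, 210 without larval 2.5SY replicate 1).

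The eggshell difference of 3.03 was 2.70 to 3.37 under other definitions and scalings and 2.51 to 3.77 with 1 array left out. Of the values of the 121 named genes called with all arrays, 2504 kept direction and call under the alternatives, 873 kept direction and lost the call, and 10 changed direction, all with the eggshell covariate in the 12 arrays alone: Cp15 (-0.75), Muc12Ea (-1.09), Tim9a (-0.0046), mbm (-0.061), Nnp-1 (-0.051), CycE (-0.027), PCNA (-0.095), Mcm2 (-0.11), Mcm5 (-0.18) and up (0.10). Cp15 is 1 of the 16 genes averaged into the eggshell level, so that covariate removes its difference largely by construction. The same holds for the other named chorion and vitelline membrane genes. Gart, which was not called, was above 0 in 14 alternatives and below 0 in 14, and was called in 0 of them.

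With the replicate number as a block, 1180 were higher and 2180 lower. Deviations of same-numbered arrays correlated at 0.003 on average, which is not the average of these 12 arrays alone. Among these arrays 7 of 12 such pairs exceeded 0.1, and they ranged from -0.147 to 0.528. Whether arrays of the same number were handled together was not tested. The eggshell covariate itself differed between the larval diets. A planned search of promoters for motifs was not run, since no promoter sequences were used here.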
